A study of Sus scrofa with 3 samples.

Results

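The microRNAs (miRNAs) miR-374a and miR-374b are 2 related copies, and each precursor gives a 5p and a 3p mature arm. The 4 mature miRNAs (ssc-miR-374a-5p, ssc-miR-374a-3p, ssc-miR-374b-5p and ssc-miR-374b-3p, written below without the species prefix) were taken by name from the deposited counts, where they are 4 of 411 mature names. They were chosen by values of these same counts, namely the 5p share of each precursor, the balance of the copies and the reads shared between them in the 3 breeds. Those values are therefore given as a description, with no test. Small RNA was sequenced from the livers of males aged 90 days after birth, in 1 library of each breed. The breeds were the domestic Enshi black pig of China, the Chinese wild boar and the Large White pig, a commercial breed of European origin. The protocols mention 3 male pigs and 3 liver samples, and whether a library holds 1 animal or a pool is not stated. A difference between breeds cannot be told apart from one between animals or libraries. The deposited counts summed to 7739853 reads in the Enshi black, 7837309 in the wild boar and 7350179 in the Large White library. The hepatocyte miRNA miR-122 led each library with 284670, 366575 and 536023 CPM (reads per 1000000 after scaling by trimmed mean of M-values, TMM) in that order. Per 1000000 reads of the library total, without that scaling, it had 342067, 394959 and 414019. All intervals below are exact 95% intervals and cover counting error only, since each breed has 1 library. Reads carry no molecular identifiers, so amplified copies count as separate reads and the intervals may be too narrow.

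A miRNA precursor is a hairpin that Dicer trims to a short duplex. Usually one strand of the duplex is loaded into an Argonaute protein and kept, and the other is degraded, so the share of 5p reads describes which strand accumulates. In human, the 5p arms of miR-374a and miR-374b share a seed and so belong to one target family, while their 3p arms differ in sequence more. The human precursors lie on the X chromosome in FTX, a long non-coding RNA gene near the X inactivation centre, together with miR-545 and miR-421. The RefSeq table of the pig genome (assembly Sscrofa11.1, used here for names and neighbours only) also places the 4 precursors on chromosome X, miR-545 next to miR-374a and miR-421 next to miR-374b. There, 1 long non-coding RNA gene without a given name spans all 4. miR-374a has been linked to Wnt signalling in human tumour cells.

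miR-374a-5p was by far the most abundant of the 4 arms. It had 12107.5 reads in the Enshi black, 9603.5 in the wild boar and 4266 in the Large White library. In TMM-scaled CPM these are 1303 (1280 to 1327), 1139 (1116 to 1162) and 752 (730 to 775) in the same order. The Large White level was the lowest and its interval did not overlap the other two. miR-374a-5p ranked 57th, 60th and 74th by abundance among the 311, 307 and 304 names with reads in the same libraries. miR-374b-5p, its seed partner in human, had 693.5, 1319.5 and 250 reads, or 74.7, 156.6 and 44.1 CPM, in the Enshi black, wild boar and Large White libraries. The Large White library was again lowest, but here the wild boar library was highest. In bulk liver, fewer cells of a type and less of a miRNA per cell cannot be told apart.

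The 3p arms, the minor strands, did not follow their 5p partners. miR-374a-3p had 749 reads in the Enshi black, 561.5 in the wild boar and 746.5 in the Large White library, or 80.6 (75.0 to 86.6), 66.7 (61.3 to 72.4) and 131.5 (122.3 to 141.3) CPM. The Large White level was the highest on the TMM scale, and on library totals it was close to the Enshi black level, at 101.6 against 96.9 CPM. miR-374b-3p had 46 reads in the Enshi black, 18.5 in the wild boar and 50.5 in the Large White library. It averaged 5.02 CPM on library totals, under the minimum of 10 used for comparisons, so 3 of the 4 arms passed that minimum. Its order over the libraries was the same as that of miR-374a-3p, and the counting intervals of the Enshi black (3.63 to 6.60 CPM) and Large White (6.54 to 11.6 CPM) libraries met at their ends.

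**Figure D1:**
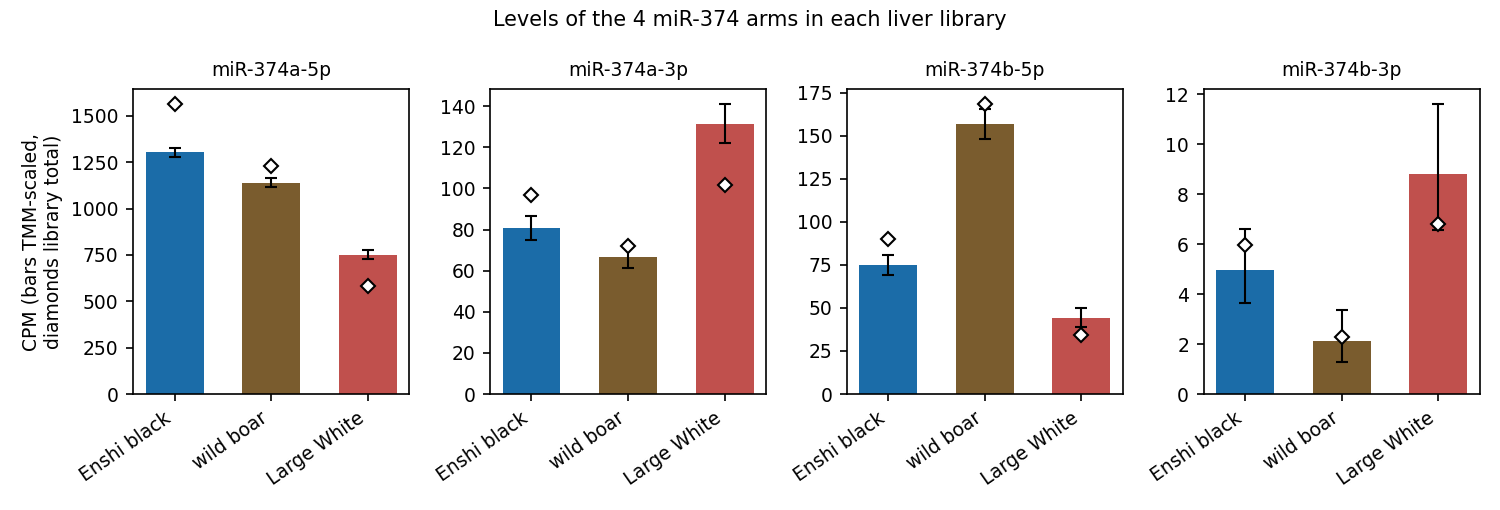
Level of each miR-374 arm in CPM by library. Bars are TMM-scaled CPM with exact 95% counting intervals, and diamonds are CPM of the library total. The 5p arms are lowest in the Large White library on both scales, while miR-374a-3p and miR-374b-3p are highest there. On library totals the Enshi black over Large White ratios of these 3p arms are 0.954 and 0.874, and both intervals hold 1.

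Between pairs of libraries, a miRNA was called higher or lower where its TMM-scaled ratio reached 2-fold and the counting interval did not hold 1. In Enshi black over Large White, 0 of the 3 arms above the minimum were called. The background was 2.88% of 208 miRNAs called higher and 10.1% lower. miR-374a-5p was 1.73-fold higher (1.67 to 1.79) and miR-374b-5p 1.69-fold higher (1.47 to 1.97) in the Enshi black library. miR-374a-3p was at 0.613 of its Large White level (0.553 to 0.679) there. The scaling decides these calls. On library totals both 5p arms were called higher, at 2.70-fold (2.60 to 2.79) and 2.64-fold (2.28 to 3.06), where 27.4% of all miRNAs were called higher and 2.88% lower, and miR-374a-3p was at 0.954 (0.860 to 1.06).

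In wild boar over Large White, 1 of the 3 arms was called higher and none lower, beside a background of 11.5% higher and 13.5% lower. That arm was miR-374b-5p, which stood 3.55-fold higher (3.10 to 4.08) and was 9th from the top of 208 miRNAs. miR-374a-5p was 1.51-fold higher (1.46 to 1.57) after TMM scaling. On library totals, where 21.6% of miRNAs were called higher and 9.13% lower, it was 2.11-fold higher (2.04 to 2.19). miR-374a-3p was at 0.707 (0.633 to 0.790) of its Large White level on library totals and at 0.507 (0.453 to 0.566) after TMM scaling. The scarce miR-374b-3p, below the minimum, was at 0.242 (0.133 to 0.422) on 18.5 against 50.5 reads.

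In Enshi black over wild boar, 1 of the 3 arms was called lower and none higher, beside a background of 6.25% in each direction. miR-374b-5p was at 0.477 of its wild boar level (0.435 to 0.523). On library totals, where 7.21% of miRNAs were called higher and 3.37% lower, the ratio was 0.532 and not called. miR-374a-5p and miR-374a-3p were 1.14-fold (1.11 to 1.18) and 1.21-fold (1.08 to 1.35) higher in the Enshi black library. miR-374b-3p, below the minimum, was 2.32-fold higher (1.32 to 4.25) on 46 against 18.5 reads.

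The 5p share of a precursor is taken within a library and needs no scaling. For miR-374a the 5p arm held 94.2% of the reads of both arms in the Enshi black (93.8 to 94.6), 94.5% in the wild boar (94.0 to 94.9) and 85.1% in the Large White library (84.1 to 86.1). For miR-374b it held 93.8% (91.8 to 95.4), 98.7% (97.9 to 99.2) and 83.3% (78.6 to 87.4) in the same order. Both precursors thus had their lowest 5p share in the Large White library, with intervals that did not overlap those of the other two. In the wild boar library miR-374b stood above miR-374a, whereas in the Enshi black and Large White libraries the intervals of the copies overlapped.

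Summing both copies removes any effect of how reads were divided between them. The summed 5p arms had 12801 reads in the Enshi black, 10923 in the wild boar and 4516 in the Large White library, and the summed 3p arms had 795, 580 and 797. The Enshi black and Large White libraries thus held nearly equal numbers of 3p reads from similar totals, while their 5p reads differed. The 5p share of the sum was 94.2% (93.7 to 94.5), 94.96% (94.5 to 95.4) and 85.0% (84.0 to 85.9). As an odds ratio of 5p to 3p reads, Enshi black over Large White was 2.84 (2.56 to 3.16), wild boar over Large White was 3.32 (2.97 to 3.73) and Enshi black over wild boar was 0.855 (0.765 to 0.956). All 4 arms together took 0.176% of miRNA reads in the Enshi black, 0.147% in the wild boar and 0.0724% in the Large White library.

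**Figure D2:**
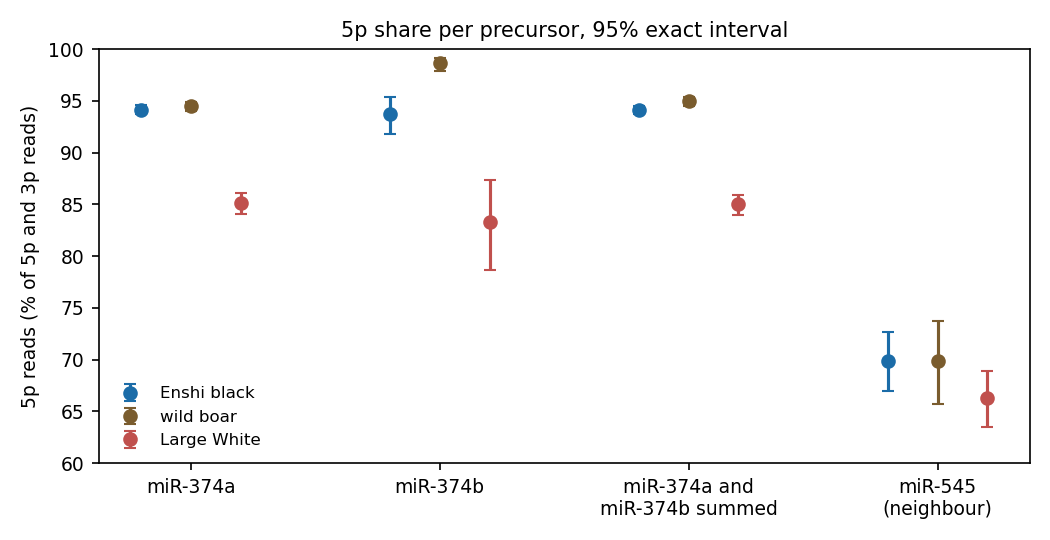
Share of 5p reads among the reads of both arms, in percent, for miR-374a, miR-374b, their sum and the neighbouring miR-545. Points are libraries, with exact 95% Clopper-Pearson intervals. The Large White library is near 85% for the sum, against 94.2% in the Enshi black and 94.96% in the wild boar library, while miR-545 stays between 66.3% and 69.9%.

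Among all precursors with both arms named and at least 100 reads in each library, 65 in number, the 5p share ranged over the libraries by a median of 2.37 percentage points. miR-374b had the 2nd widest range at 15.3 points, after miR-542 at 35.4 and before miR-455 at 14.5. miR-374a was 12th at 9.36 points, between a miR-345 precursor at 9.54 and miR-671 at 9.13. On the odds scale, with 0.5 added to each arm, miR-374b had the 2nd highest 5p odds ratio of the 65 in Enshi black over Large White. miR-374a shared the 3rd place with miR-542, miR-218-1 and miR-218-2, each at a rounded log2 odds ratio of 1.5. The ratios of the miR-218 precursors rest on the added 0.5. Their 5p share was 100% in the Enshi black and 99.8% in the Large White library. In wild boar over Large White miR-374b was 1st and miR-374a 4th. Odds at least 2-fold apart in either direction were found for 13.8% of precursors in Enshi black over Large White, 24.6% in wild boar over Large White and 18.5% in Enshi black over wild boar. Both miR-374 precursors were among them in the first pair and in the second. In Enshi black over wild boar miR-374b was among them, with an odds ratio of 0.206 (0.111 to 0.365), and miR-374a was not, at 0.946 (0.844 to 1.06). The Large White library did not have the lowest 5p share in general. It was lowest for 27 of the 65 precursors, the wild boar library for 21 and the Enshi black library for 12, with 5 ties. Some of the 65 are duplicate precursors that share reads, such as the 2 of miR-345. Others have almost no reads on one arm, and their odds ratios rest on the added 0.5. miR-4334 had a 5p share of 0 in all 3 libraries. It still counts as 2-fold apart in both pairs with the wild boar library, at log2 odds ratios of −2.41 and 1.57. The percentages of precursors at least 2-fold apart include such cases.

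**Figure D3:**
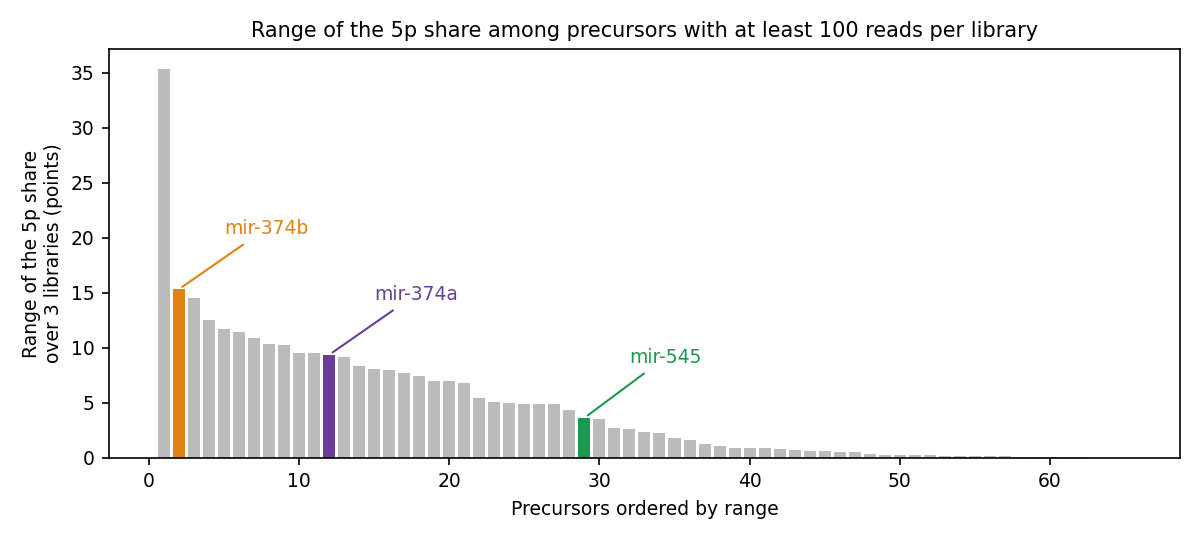
Range of the 5p share over the 3 libraries, in percentage points, for the 65 precursors with at least 100 reads in each library, ordered from widest to narrowest. Coloured bars mark miR-374b at 15.3 points, miR-374a at 9.36 and miR-545 at 3.63, and the median is 2.37.

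The balance of the copies differed in the wild boar library. miR-374b gave 5.42% of the 5p reads of both copies in the Enshi black (5.04 to 5.83), 12.1% in the wild boar (11.5 to 12.7) and 5.54% in the Large White library (4.89 to 6.24). Of the 3p reads it gave 5.79% (4.27 to 7.64), 3.10% (1.85 to 4.86) and 6.28% (4.70 to 8.20). The Enshi black and Large White libraries thus had nearly the same balance on both arms. In the wild boar library miR-374b was over-represented on the 5p arm and at its lowest on the 3p arm. The odds of a miR-374a read on the 5p arm were 0.426 of the Large White odds in the wild boar library (0.369 to 0.491). On the 3p arm they were 2.09-fold higher (1.18 to 3.85), resting on 18.5 miR-374b reads.

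These shares depend on how reads that match both copies were divided. All 4 arms had counts ending in 0.5 in 2 of the 3 libraries, and the sum of the copies was a whole number for each arm in each library, as when a shared read gives 0.5 to each copy. The 5p arms had such counts in the Enshi black and wild boar libraries, and the 3p arms in the wild boar and Large White libraries. A whole number does not mean that no read was shared, since an even number of shared reads also gives one. Divided in this way, at most 1387 of the 5p reads could be shared in the Enshi black, 2639 in the wild boar and 500 in the Large White library. These are 10.8%, 24.2% and 11.1% of the 5p reads. If every such read came from one copy, the miR-374b share of the 5p reads could lie anywhere from 0 up to those percentages. The counts therefore do not fix the order of the copy balance between libraries. They do fix that the Large White library had the lowest 5p share of miR-374a, which would lie from 93.5% to 94.8% in the Enshi black, from 93.5% to 95.3% in the wild boar and from 83.4% to 86.6% in the Large White library. The Enshi black and wild boar spans overlap. These limits were worked out after the counts were seen. For miR-374b itself no such limits can be given, because all of its reads could be shared ones.

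**Figure D4:**
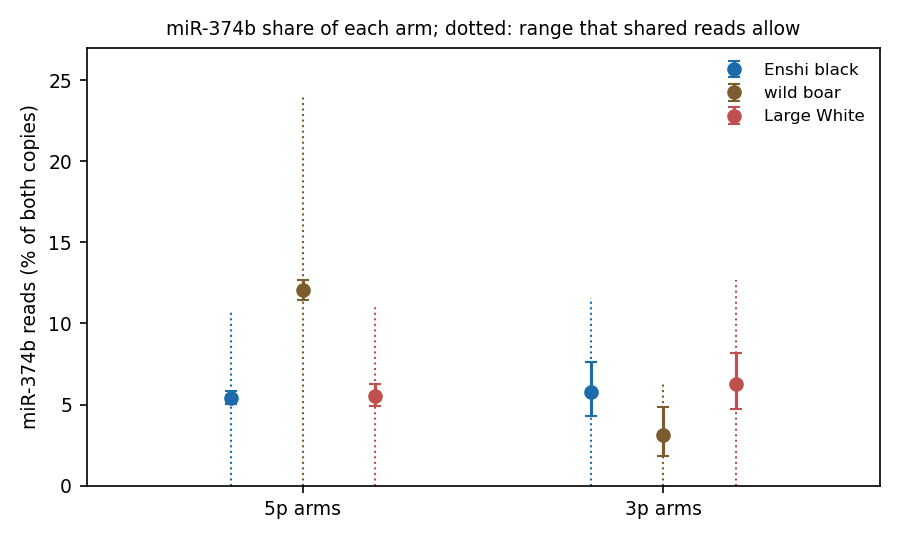
Share of miR-374b among the reads of both copies, in percent, for the 5p and the 3p arms. Points are the deposited division with exact 95% Clopper-Pearson intervals, and dotted lines span the values that shared reads allow. The wild boar library stands at 12.1% on the 5p arm, against 5.42% in the Enshi black and 5.54% in the Large White library, and the dotted spans of the 3 libraries overlap.

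The neighbours of the miR-374 precursors on chromosome X had whole-number counts in all 3 libraries. miR-545-5p had 727 reads in the Enshi black, 373 in the wild boar and 794 in the Large White library, and miR-545-3p had 313, 161 and 404. Both arms were highest in the Large White and lowest in the wild boar library, the order that the miR-374 3p arms had. In wild boar over Large White they were called lower, at 0.316 (0.279 to 0.358) and 0.268 (0.222 to 0.323). In Enshi black over Large White miR-545-3p was called lower at 0.473 (0.407 to 0.550), which became 0.736 on library totals and was not called. The 5p share of miR-545 was 69.9% in the Enshi black, 69.9% in the wild boar and 66.3% in the Large White library. Its odds ratio in Enshi black over Large White was 1.18 (0.985 to 1.42), below the interval of the summed miR-374 copies.

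miR-374a-5p therefore had 16.7 reads per read of miR-545-5p in the Enshi black, 25.7 in the wild boar and 5.37 in the Large White library. For miR-374a-3p the same ratio was 1.03, 1.505 and 0.940, a much narrower span. miR-421, next to miR-374b, was scarce. miR-421-3p had 89, 85 and 45 reads and miR-421-5p 8, 10 and 5, all below the minimum. miR-421-3p was 1.21-fold higher in the Enshi black (0.835 to 1.77) and 1.27-fold higher in the wild boar (0.875 to 1.87) than in the Large White library, and both intervals held 1. On library totals these were 1.88-fold (1.30 to 2.75) and 1.77-fold (1.22 to 2.60), and neither interval held 1.

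**Figure D5:**
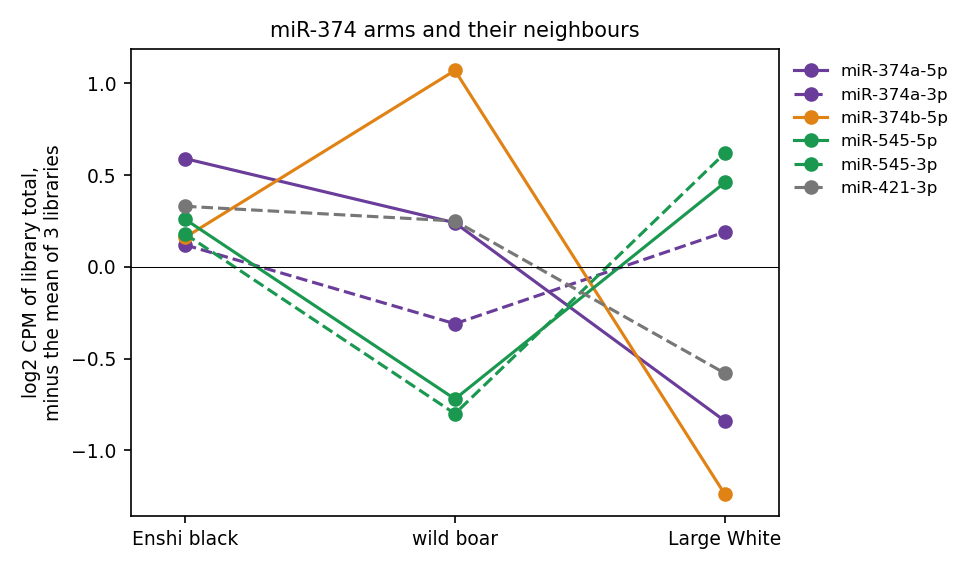
Levels of miR-374 arms and their neighbours on chromosome X as log2 CPM of the library total, each minus its mean over the 3 libraries. Solid lines are 5p arms and dashed lines 3p arms. miR-374a-5p and miR-374b-5p have their lowest point in the Large White library (−0.84 and −1.24), whereas miR-374a-3p and both miR-545 arms have their highest there. For miR-374a-3p the lead is narrow, at 0.19 against 0.12 in the Enshi black library.

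Likeness of pattern was measured as the distance between log2 levels over the 3 libraries, each centred on its own mean, so that scaling cannot change it. Among 205 other miRNAs, miR-27a (distance 0.07), miR-744 (0.11) and miR-532-3p (0.13) were nearest to miR-374a-5p. Nearest to miR-374a-3p were miR-499-5p (0.04), miR-136 (0.06) and miR-218 (0.09). Nearest to miR-374b-5p were miR-331-3p (0.08), miR-369 (0.40) and miR-127 (0.42). The arms of miR-374a lay 1.26 apart, whereas those of miR-545 lay 0.20 apart. miR-374a-3p was 0.51 from miR-545-5p, which was only the 44th nearest of 207 miRNAs to it. With 3 libraries, a small distance describes these libraries alone.

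Marker miRNAs of other cell types also differed between the libraries. The 2 endothelial markers (miR-126-3p and miR-126-5p) summed to 16284 CPM in the Enshi black, 12169 in the wild boar and 10080 in the Large White library on the TMM scale, the order that miR-374a-5p had. The smooth muscle pair (miR-143-3p and miR-145-5p) summed to 25249, 19414 and 18994 CPM, and the stellate cell pair (miR-199a-5p and miR-214) to 17214, 14597 and 12568 CPM, again in that order. The smooth muscle markers barely differed between the wild boar and Large White libraries on that scale, with log2 ratios of 0.02 and 0.1, but 0.5 and 0.58 on library totals. On the TMM scale no endothelial, smooth muscle or stellate cell marker was called in any pair. On library totals some passed 2-fold in Enshi black over Large White. They were miR-126-3p, miR-126-5p, miR-143-3p and miR-199a-5p, with log2 ratios of 1.31, 1.44, 1.07 and 1.1. miR-145-5p and miR-214 stayed under it, at 0.9 and 0.92. In wild boar over Large White only miR-126-5p passed, at 1.27. On the TMM scale the 4 leucocyte markers (miR-142-3p, miR-142-5p, miR-150 and miR-155-5p) summed to 10708, 3582 and 20630 CPM. The 3 red cell markers (miR-144, miR-451 and miR-486) summed to 4114, 3114 and 5324 CPM. Those sums were highest in the Large White and lowest in the wild boar library, as were miR-374a-3p and both arms of miR-545. Not every marker in them had that order. miR-150 was highest in the Enshi black library, at 314 CPM against 278 in the Large White library. miR-486 was lowest in the Enshi black library, at 132 CPM against 145 in the wild boar and 147 in the Large White library. The others had the order of the sums on the TMM scale. On library totals the red cell sum was instead highest in the Enshi black library, at 4944 against 4112 CPM in the Large White library. The leucocyte sum kept its order there, at 12867, 3859 and 15934 CPM, but of its markers only miR-142-3p did. miR-142-5p, miR-150 and miR-155-5p had log2 ratios of 0.08, 0.81 and 0.01 in Enshi black over Large White on library totals. On the TMM scale the striated muscle pair (miR-1 and miR-133a-3p) summed to 76.3, 42.7 and 131.5 CPM. This sum was also highest in the Large White and lowest in the wild boar library. That order was the order of miR-1, which was called lower in wild boar over Large White with a log2 ratio of −2.23. miR-133a-3p was lowest in the Enshi black library, at 19.7 CPM against 20.8 in the wild boar and 28.6 in the Large White library. It was called in no pair. No listed marker was at 0, and the part of these cell types in the levels or arm shares of miR-374 was not tested.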

How the data were processed

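Per the labels' protocols, total RNA was extracted with TRIzol, and RNA of 14 to 40 nucleotides was purified on a gel, ligated and amplified, and single-end sequencing gave reads of 50 bases. The submitters' processing notes name Sscrofa 10.2 as the genome build. Which aligner, counter and miRNA annotation were used is not given in the sources at hand. The authors deposited, per the file headers, an expected count per mature miRNA and precursor (486 rows in each library), with fractions where reads were divided. The deposited RPM values are the counts over their sum and were not used.

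Counts were summed over precursors, 6 names that repeat another were left out, and sums were rounded, which left 405 names. TMM factors came from edgeR 4.0.16 in R 4.3.3 and were 1.20 for the Enshi black, 1.08 for the wild boar and 0.772 for the Large White library. Comparisons used the 208 miRNAs with a mean of at least 10 CPM of library totals, of which 65 hold a fraction over 0.05. Ratios have exact conditional-binomial intervals, shares Clopper-Pearson intervals and odds ratios exact conditional intervals (scipy 1.17.1). With 1 library per breed, no test was run. The ratio intervals and the 2-fold call were tested on simulated counts with known folds. Those counts held counting error only, had no fold near the 2-fold limit and were checked only where reads were ample. Scarce arms such as miR-374b-3p were not covered. TMM scaling, shares, odds ratios and the limits on shared reads were not part of that check. Of 382 precursors, 315 matched the RefSeq table. Where a marker was listed with no arm, the arm with more reads was used. The members, the marker and neighbour lists and the rule for naming (all 4 arms, their neighbours, the 3 nearest patterns per arm above the minimum, precursors adjacent in the ranking by range) were chosen with earlier results of these data known. Alternatives were other scalings, thresholds and filters, whole parts of counts only, other divisions of fractional reads and a higher read minimum for arm shares. Sequences of the 4 arms are not shown here.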

Additional observations from a re-analysis of the deposited data

How the results depend on the processing

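Of 153 values under the alternatives, 101 were labelled as the same. For a level ratio this means an unchanged call, not an unchanged size. No ratio of a miR-374 arm changed direction. Shares and odds ratios of the arms moved by less than their counting error when fractional reads were dropped or given to one copy. The scaling moved the levels, also where the call stayed. For miR-374a-3p the log2 ratio went from −0.71 to −0.07 on library totals in Enshi black over Large White. In wild boar over Large White it went from −0.98 to −0.5. That of miR-374b-3p went from −0.83 to −0.19 in Enshi black over Large White. On library totals the log2 ratio of miR-374a-5p was 1.43 in Enshi black over Large White and 1.08 in wild boar over Large White, and 1.26 and 1.03 on totals without miR-122, all past 2-fold. That of miR-374b-5p in Enshi black over Large White was 1.40 and 1.23 on these scales. In Enshi black over wild boar it was −0.91 on library totals, under 2-fold. A 1.5-fold threshold also called 0.79, −0.71, 0.76 and −0.83 for miR-374a-5p, miR-374a-3p, miR-374b-5p and miR-374b-3p in Enshi black over Large White, and 0.60 and −0.98 for miR-374a-5p and miR-374a-3p in wild boar over Large White.

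With the largest number of shared reads, the 5p share of miR-374a spanned 93.5% to 94.8% in the Enshi black, 93.5% to 95.3% in the wild boar and 83.4% to 86.6% in the Large White library. The lowest miR-374a share of the 5p reads would be 89.2%, 75.8% and 88.9% in that order, and of the 3p reads 88.4%, 93.6% and 87.3%.

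For the background, Enshi black over Large White had 57 miRNAs called higher and 6 lower on library totals, 37 and 8 without miR-122, 31 and 41 at 1.5-fold, 13 and 39 with no filter, and 1 and 12 at a mean of at least 100 CPM, against 6 and 21 as reported. Wild boar over Large White had 45 higher on library totals, 43 without miR-122, 40 and 55 (higher and lower) at 1.5-fold, 38 and 47 with no filter and 13 and 18 at 100 CPM, against 24 and 28. Enshi black over wild boar had 7 lower on library totals, 29 and 24 at 1.5-fold, 21 and 29 with no filter and 6 and 8 at 100 CPM, against 13 and 13. DESeq2 1.42.0 size factors changed none of the calls of the miR-374 arms. With at least 1000 reads in each library, 38 precursors remained and miR-374a was 4th by range of the 5p share, while miR-374b was too scarce to enter. These shifts follow from which precursors or miRNAs enter, or from the scaling or threshold itself. miR-374b-3p, at 18.5 to 50.5 reads, limits the statements on the miR-374b 5p share and on the 3p copy balance. No paired analysis was possible because each breed has 1 library, and for the same reason no replicate could be left out.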

Other observations

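Beyond the miR-374 arms, 36 other mature names come from precursors that the RefSeq table places on chromosome X alone, and 19 of them passed the minimum. The 19 include both miR-545 arms, so the lower calls of miR-545 given above are counted here again. In wild boar over Large White 3 of the 19 were called higher and 4 lower, where 11.5% of all 208 miRNAs were called higher and 13.5% lower, and their median log2 ratio was −0.17 against −0.02 over all. In Enshi black over Large White 0 were called higher and 1 lower, where 2.88% and 10.1% of all were called, with a median of 0.14 against −0.04. For Enshi black over wild boar, 1 was called higher and 0 lower, where 6.25% of all were called in each direction, with a median of 0.16 against −0.01. On library totals the 3 medians were 0.31, 0.78 and 0.32, against 0.46, 0.60 and 0.15 over all miRNAs. There 5 were called higher and 4 lower in wild boar over Large White, beside 21.6% and 9.13% of all. On that scale 5 and 0 were called in Enshi black over Large White, beside 27.4% and 2.88%, and in Enshi black over wild boar 1 and 0, beside 7.21% and 3.37%.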
